A study of Homo sapiens with 2 samples.

Results

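The genes described here are the 9 that recognize replication origins and license them, namely ORC1, ORC2, ORC3, ORC4, ORC5, ORC6, CDC6, CDT1 and GMNN. They were taken by name, and all ChIP-seq peaks within 10 kb of the span of each gene in RefSeq were collected. All 9 were found among the 19974 protein-coding RefSeq genes on chromosomes 1 to 22 and X. The peaks came from 1 anti-Flag immunoprecipitate, called against 1 input library. Both libraries were made from A549 cells, an established human lung adenocarcinoma line, that carried an shRNA against ETV4 and were then transfected with Flag-tagged ETV4. The binding measured is therefore that of a tagged protein supplied from a plasmid. The study's methods and the sample labels name Flag antibodies of different suppliers. There was no replicate and no second condition, so the values below carry counting error only and no test between groups was possible.

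Licensing prepares an origin for replication before S phase. The origin recognition complex, made of the ORC1 to ORC6 proteins, binds origin DNA, and CDC6 joins it in an ATP-dependent step. CDT1 then brings the MCM helicase, which is loaded onto the DNA as an inactive double ring. Geminin, the product of GMNN, binds CDT1 and blocks further loading once S phase has begun, and CDT1 itself is degraded. Several of these genes, among them CDC6, CDT1, GMNN and ORC1, are textbook targets of the E2F factors, which switch on transcription at the G1/S transition. ETV4 belongs to the PEA3 group of ETS factors, whose DNA-binding domain recognizes a GGAA core.

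Flag-ETV4 peaks were found within 10 kb of 8 of the 9 genes, and ORC5 was the exception. This share was close to that of all protein-coding genes, 81.9% of which had a peak within 10 kb. The 8 genes had 14 peaks between them, with a fold enrichment over the control from 3.35 to 41.0. ORC2, ORC3, ORC4 and GMNN had 1 peak each, ORC1 and ORC6 had 2, and CDC6 and CDT1 had 3. Across the windows of the 9 genes, 574.0 kb in all, this was 2.44 peaks per 100 kb, against 2.47 over the windows of all protein-coding genes.

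The transcription start was taken from a RefSeq promoter table, which lists 15812 of the protein-coding genes and all 9 licensing genes. A peak lay within 1 kb of a listed start in 8 of the 9, against 64.5% of the protein-coding genes in the table. A peak with a fold enrichment of 10 or more lay there in 6 of 9 licensing genes, against 47.1% of the table. The highest fold at a start had a median of 11.0 over the 9 genes, with ORC5 counted as lowest, and of 8.76 over the table. In the 10 kb window the order of the medians was the opposite, 11.0 for the 9 genes and 17.5 for all protein-coding genes. With 9 genes and no replicate, these counts and medians are descriptions.

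**Figure D1:**
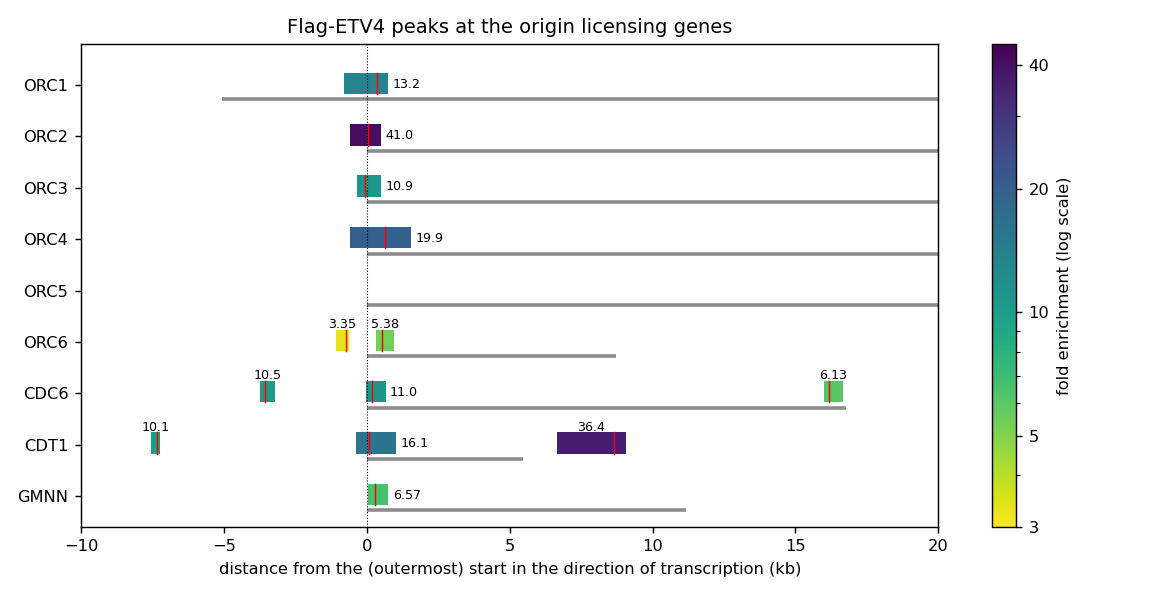
Position of the peaks of each gene, in kb from its outermost listed start and in the direction of transcription. Coloured boxes are peak intervals with their fold enrichment (log colour scale), red ticks are summits and grey lines are gene spans, drawn as far as 20 kb past the start. Boxes contain the start or lie within 1 kb of it in every gene but ORC5, which has none, and the ORC1 peak beyond the 3′ end, with a fold of 5.91, lies outside the plotted range.

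Of the 14 peaks, 9 lay within 1 kb of a start of a licensing gene, and 7 of these 9 contained the start. By fold enrichment the highest start peaks followed the order ORC2, ORC4, CDT1, ORC1, CDC6, ORC3, GMNN and ORC6. The fold at ORC2 was 41.0, with an interval of 34.1 to 48.8 from the counting error of its pileup, and this interval did not overlap that of any other start peak. The following neighbours in the order could not be told apart. ORC4 had a fold of 19.9 (15.9 to 24.7), CDT1 of 16.1 (11.5 to 22.1) and ORC1 of 13.2 (9.84 to 17.5). CDC6 had a fold of 11.0 (7.53 to 15.5) and ORC3 of 10.9 (7.57 to 15.3). GMNN had 6.57 (4.44 to 9.40) and ORC6 5.38 (3.16 to 8.66), and the intervals of these lowest start peaks lay below that of ORC1. The gap between the intervals of GMNN and ORC1 was narrow, and error in the control level is not part of any of these intervals.

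Among the 10350 peaks of the list that came within 1 kb of a protein-coding start, the median fold was 15.9 and the median width 1007 bp. The licensing genes were spread over that range. ORC2 was at percentile 88.0 by fold, ORC4 at 59.3, CDT1 at 50.3 and ORC1 at 43.0. CDC6 and ORC3 were at percentiles 35.8 and 35.3, GMNN at 18.4, and the higher ORC6 peak at 12. In the table of genes, 1365 of the 15812 had a start peak at least as high as that of ORC2.

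**Figure D2:**
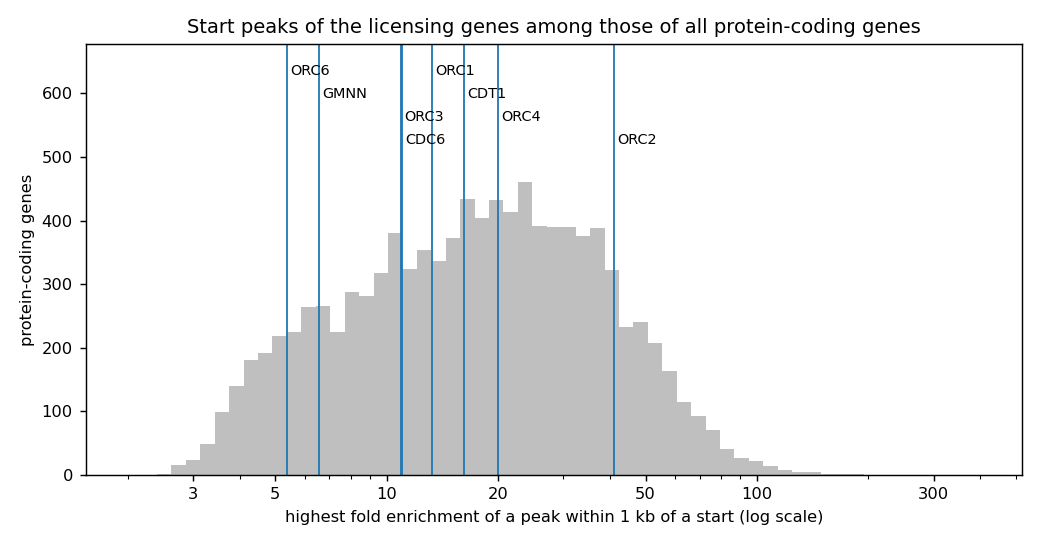
Number of protein-coding genes (vertical axis) by the highest fold enrichment of a peak within 1 kb of a listed start (horizontal log axis). Genes without such a peak are not drawn, and blue lines mark the 8 licensing genes that have one, from 5.38 at ORC6 to 41.0 at ORC2.

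ORC2 encodes a core subunit of the complex and had the strongest start peak. Its fold was also the highest of all 14 peaks, but the interval overlapped that of the peak downstream of CDT1, 29.9 to 43.8. The peak on chromosome 2 ran from 200963164 to 200964236, 1073 bp wide, with a −log10 q of 166.6. Its summit at 200963613 was 47 bp downstream of the start, where 123 fragments were piled up. The exact Poisson 95% confidence interval of that number was 102.2 to 146.8, and the control level there was 2.03. Ranges in parentheses after a number of fragments below are intervals of the same kind. The start of a lncRNA gene on the opposite strand, LOC105373835, lies 228 bp inside ORC2, so the peak covered both starts. No other peak was listed within 10 kb of ORC2.

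The 250 bases upstream of the ORC2 start are shown because the strongest start peak covers all of them. Capitals mark the 6-letter ETS forms CCGGAA and AGGAAG on either strand, and the sequence reads 5′ to 3′ in the direction of the gene (RefSeq, GRCh38.p14):
ORC2, chr2:200963661-200963910, - strand: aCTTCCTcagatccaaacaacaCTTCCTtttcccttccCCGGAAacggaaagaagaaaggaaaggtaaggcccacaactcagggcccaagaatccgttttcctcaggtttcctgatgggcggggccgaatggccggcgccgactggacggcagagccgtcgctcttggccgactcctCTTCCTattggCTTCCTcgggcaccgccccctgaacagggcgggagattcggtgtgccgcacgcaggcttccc

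These bases hold 1 match to CCGGAA and 4 to AGGAAG, all 4 on the opposite strand as CTTCCT. In the window of the promoter table, which extends 50 bases past the start, ORC2 had 12 matches to the GGAA core. This was the most of all windows of the licensing genes. Whether the number of matches goes with the fold was not tested. The nearest of the marked matches to the summit, an AGGAAG form, was 104 bp away, and the match to CCGGAA was 254 bp away.

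ORC4 encodes an ATP-binding subunit and is listed with 2 starts, 814 bp apart on chromosome 2. Its peak from 148019997 to 148022130 was 2134 bp wide, at percentile 92.1 of width among peaks at protein-coding starts, and contained both. The summit at 148020922 lay 185 bp upstream of the inner start and held 81 fragments (64.3 to 100.7), with the control at 3.12. A gene on the opposite strand, MBD5, begins in RefSeq 5 bp from this summit, and its listed start is 274 bp from the inner start of ORC4.

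ORC3 encodes the subunit through which ORC6 is tied to the rest of the complex. Its peak on chromosome 6 ran from 87589784 to 87590633 with a −log10 q of 25.2. The summit at 87590053 fell between the start of ORC3, 82 bp away, and the start of RARS2 on the opposite strand, 66 bp away. RARS2 encodes the mitochondrial arginyl-tRNA synthetase. The summit held 32 fragments (21.9 to 45.2), with the control at 2.03.

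The 250 bases upstream of the inner ORC4 start and of the ORC3 start are shown because the summit falls inside them, close to a match. Capitals mark the same ETS forms:
ORC4, chr2:148020738-148020987, - strand: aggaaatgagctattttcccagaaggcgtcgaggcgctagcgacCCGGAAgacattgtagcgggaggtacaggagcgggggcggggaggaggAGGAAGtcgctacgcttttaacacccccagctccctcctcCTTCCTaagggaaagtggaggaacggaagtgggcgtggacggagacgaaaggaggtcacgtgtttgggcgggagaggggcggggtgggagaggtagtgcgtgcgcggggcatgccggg
ORC3, chr6:87589885-87590134, + strand: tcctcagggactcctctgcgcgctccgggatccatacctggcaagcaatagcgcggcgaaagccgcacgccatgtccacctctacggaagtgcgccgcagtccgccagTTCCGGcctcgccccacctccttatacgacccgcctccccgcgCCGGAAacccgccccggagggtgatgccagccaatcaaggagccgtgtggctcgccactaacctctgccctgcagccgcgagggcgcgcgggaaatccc

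At ORC4, the match to CCGGAA lay at −206 to −201, counted from 0 at the first base of the inner start, and 16 bp from the summit. At ORC3, 1 match, at −99 to −94, was 12 bp from the summit and the other was 55 bp from it. Such distances were common. Both a summit and a match to CCGGAA were held by 1919 promoter windows of protein-coding genes. The median distance there was 29.0 bp, and in 34.5% of them it was 16 bp or less, the ORC4 distance. The ORC2 window also held both, but its match to CCGGAA was 254 bp from the summit. Neither ORC3 nor ORC4 held the longer form CCGGAAGT in its window.

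ORC1 encodes the largest ATP-binding subunit, whose level rises and falls over the cell cycle. It is the licensing gene whose promoter the study examined by ChIP-PCR. The study also reports luciferase assays of that promoter, and lower ORC1 mRNA and protein after ETV4 knockdown. The peak at its start on chromosome 1 ran from 52403685 to 52405235, with a −log10 q of 40.2, and its summit held 48 fragments (35.4 to 63.6), with the control at 2.70. The promoter table places the ORC1 start at 52404423, and the opposite-strand gene PRPF38A, which encodes a splicing factor, starts 179 bp from it. The peak contained both starts, and its summit at 52404071 was 352 bp downstream of the ORC1 start and 531 bp from that of PRPF38A. The outermost ORC1 transcript in RefSeq begins 5080 bp further upstream, where no peak was listed. The other ORC1 peak, from 52365636 to 52366370, contained the 5′ end of CC2D1B and had a fold of 5.91. Its summit was 6754 bp from ORC1 and 130 bp from that end of CC2D1B.

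The study's ChIP-PCR primers for ORC1 were AAAGCACCTAGAGGAATGGAGAAAG and CCGCCCACTCCGTACACCTAAGA. They were placed on the promoter window to show which part of the peak region that assay covers. The study ran it in H1299 cells with an ETV4 antibody and in ETV4-overexpressing H358 cells with a Flag antibody. Neither is the A549 line of this peak list. The window is printed with the ETS form CCGGAA in capitals:
ORC1, chr1:52404424-52404673, - strand: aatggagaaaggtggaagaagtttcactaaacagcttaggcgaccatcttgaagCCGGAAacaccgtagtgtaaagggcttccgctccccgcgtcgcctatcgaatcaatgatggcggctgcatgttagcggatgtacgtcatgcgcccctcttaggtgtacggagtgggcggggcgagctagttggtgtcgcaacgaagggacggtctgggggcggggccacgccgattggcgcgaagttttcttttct

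All 23 bases of the reverse primer matched the window, on the opposite strand, at −100 to −78 from the start. Of the forward primer, the last 11 of its 25 bases matched at the far edge of the window, at −250 to −240, and the rest reaches beyond the sequence used here. Both stretches were inside the peak, and the nearer one was 430 bp from the summit. Between them lay the only match to CCGGAA, at −196 to −191 and 543 bp from the summit. The start of PRPF38A, at 52404602, also lay between them. The match, from 52404614 to 52404619, was just inside PRPF38A. The reverse primer of the study's ORC1 luciferase reporter matched over 25 of its 33 bases, from −2 to 22, also inside the peak. The unmatched bases, GCTCTAGA at its 5′ end, hold the XbaI site that the study names for cloning.

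ORC6 encodes the smallest subunit, which also binds DNA on its own. It had 2 weak peaks on chromosome 16 that flanked the start and did not contain it. The upstream one, from 46688591 to 46689026, had a fold of 3.35, a −log10 q of 2.19 and 8 fragments at its summit (3.45 to 15.8), with the control at 1.69. By fold it ranked at percentile 1.71 of the whole list, and its summit was 245 bp from the start of VPS35, an opposite-strand gene of the retromer complex that starts 481 bp from ORC6. The other, from 46689967 to 46690620, lay inside ORC6 with its summit 533 bp past the start, a fold of 5.38 and 15 fragments (8.39 to 24.7). The promoter window of ORC6 itself was not overlapped by a peak.

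ORC5 encodes the remaining ATP-binding subunit and had no peak within its span or 10 kb around it. The gene covers 81.7 kb on chromosome 7, from 104126341 to 104208013, and the nearest other gene, LHFPL3, was 120.6 kb from it. The nearest peak, from 104104720 to 104105237 with a fold of 20.6, was 21.1 kb beyond its 3′ end and 102.8 kb from its start. Upstream of the start the nearest peak was 89.1 kb away and had a fold of 3.94. The stretch without a peak was 191.9 kb long, at percentile 94.6 of all distances between consecutive peaks on a chromosome, whose median was 18.7 kb. A region below the threshold of the caller is not listed, so the level of signal at ORC5 is not known.

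The 250 bases upstream of the ORC5 start are shown because they hold a match without a peak, again with CCGGAA on either strand in capitals:
ORC5, chr7:104208014-104208263, - strand: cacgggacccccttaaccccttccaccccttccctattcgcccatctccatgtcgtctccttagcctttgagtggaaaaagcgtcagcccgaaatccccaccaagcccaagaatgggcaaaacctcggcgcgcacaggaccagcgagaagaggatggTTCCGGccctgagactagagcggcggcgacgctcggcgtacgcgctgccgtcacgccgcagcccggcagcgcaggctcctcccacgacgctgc

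The window of ORC5 held 2 matches to CCGGAA, both as TTCCGG, 1 of them past the start. Among the 1214 windows of protein-coding genes with at least 2 matches, 91.4% were overlapped by a peak. The GC content of the ORC5 window was 66.7%, and of the 3085 windows within 2 percentage points of that value 68.7% were overlapped by a peak.

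**Figure D3:**
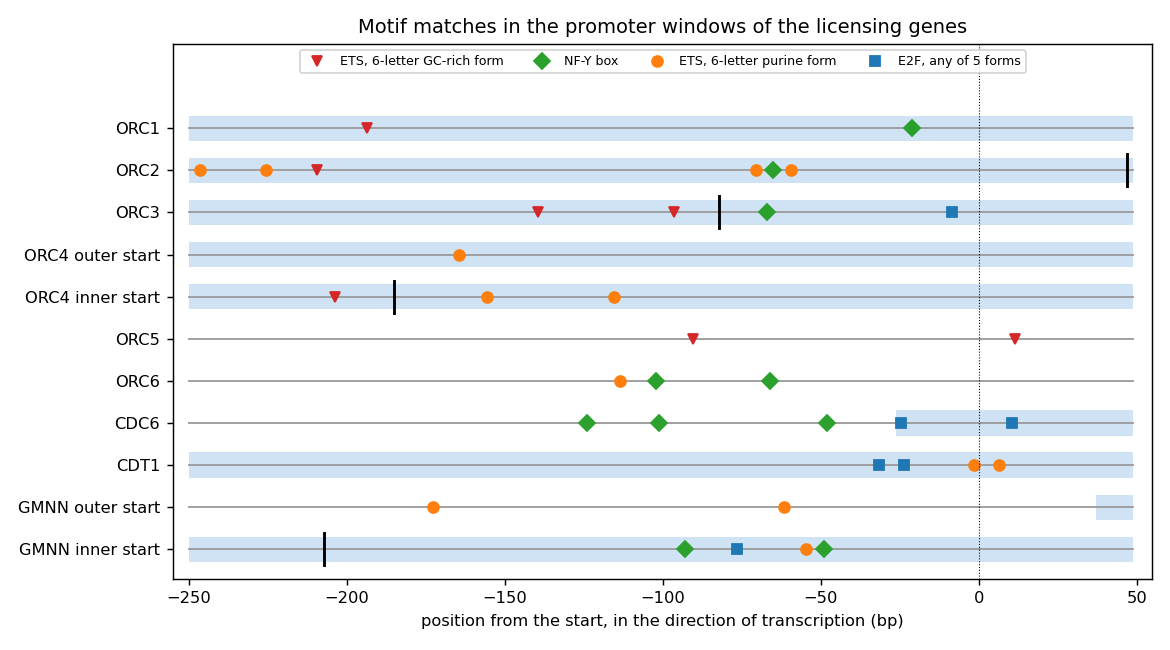
Motif matches on either strand in the 11 promoter windows of the 9 genes, from 250 bp before to 50 bp past the start (horizontal axis, bp in the direction of transcription). Blue shading is the part covered by a peak, black ticks are summits inside the window, red and orange marks are the ETS forms CCGGAA and AGGAAG, blue squares any of 5 E2F forms and green diamonds the NF-Y box CCAAT. ORC5 has 2 red marks and no shading, and the summits of ORC3 and of the inner start of ORC4 lie beside a red mark.

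CDC6 encodes the ATPase that completes the loading platform with the complex. The peak at its start on chromosome 17, from 40287853 to 40288535, began just before the start. Its summit was 190 bp downstream, with a fold of 11.0 and 30 fragments (20.2 to 42.8), the control being 1.82. A peak from 40284151 to 40284648 with a fold of 10.5 was 3562 bp upstream of CDC6 by its summit, and that summit was 181 bp from the 3′ end of WIPF2. The third, from 40303867 to 40304561 with a fold of 6.13, lay inside CDC6, with its summit 614 bp from the 3′ end. The pileup intervals of the upstream and start peaks of CDC6 overlapped widely, 14.6 to 34.5 against 20.2 to 42.8.

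CDT1 encodes the factor that carries the helicase to the origin. Its start peak on chromosome 16, from 88803423 to 88804820, was 1398 bp wide and had a fold of 16.1 and a −log10 q of 37.6. The summit was 85 bp past the start, with 37 fragments (26.1 to 51.0) and the control at 1.36. A stronger peak within 10 kb, from 88810439 to 88812850, had a fold of 36.4 and 109 fragments (89.5 to 131.5). This summit lay 3177 bp past the end of CDT1 and 507 bp from the start of APRT, which encodes a purine salvage enzyme. The third peak, from 88796235 to 88796562, had a fold of 10.1 and its summit 7351 bp upstream of CDT1, and no other gene end was closer to it than that of CDT1.

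GMNN is listed with 2 starts on chromosome 6, 476 bp apart, and its only peak ran from 24774974 to 24775693. The peak began just past the outer start and contained the inner one, and its summit at 24775206 was 207 bp upstream of the inner start. The pileup of 28 fragments (18.6 to 40.5) was close to the 30 of the CDC6 start peak, but the control level of 3.41 was the highest at any of the 14 summits, against 1.82 at CDC6. The fold was accordingly lower at GMNN, 6.57 against 11.0. No protein-coding gene lay within 10 kb of GMNN.

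The 100 bases upstream of the start are shown for the 2 loading factors and for the inner GMNN start, because these windows hold E2F forms under or beside the peak. Capitals mark TTTGGCGC, TTTCCCGC, TTTCGCGC, TTTGGCGG and TTTCCCGG on either strand:
CDC6, chr17:40287779-40287878, + strand: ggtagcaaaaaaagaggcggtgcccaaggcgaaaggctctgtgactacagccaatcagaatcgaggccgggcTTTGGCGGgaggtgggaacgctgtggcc
CDT1, chr16:88803689-88803788, + strand: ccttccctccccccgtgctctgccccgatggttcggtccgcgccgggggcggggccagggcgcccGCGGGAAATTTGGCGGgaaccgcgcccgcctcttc
GMNN, chr6:24775313-24775412, + strand: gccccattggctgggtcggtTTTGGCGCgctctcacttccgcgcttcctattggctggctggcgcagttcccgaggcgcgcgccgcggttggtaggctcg

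At least 1 of these E2F forms was found in 4 of the 11 windows of the licensing genes, those of CDC6, CDT1, ORC3 and the inner GMNN start, against 6.02% of all windows of protein-coding genes. CDC6 and CDT1 held 2 each, of which 1 at CDC6 lay past the start and outside the bases shown. At CDT1 the pair, TTTCCCGC on the opposite strand followed by TTTGGCGG, was directly adjacent, at −35 to −20 and 105 bp from the summit at its nearest base. At CDC6 the matches were 176 and 211 bp from the summit, and at GMNN the match was 127 bp from it. The ORC1 window held none of these forms, but only exact matches were counted, and near matches were not searched. CCGGAA was absent from the windows of CDC6, CDT1, GMNN and ORC6, and present in those of ORC1, ORC2, ORC3, ORC4 (inner start) and ORC5, which makes 5 of 11 windows against 21.1% of all windows of protein-coding genes.

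Over all 22132 promoter windows of protein-coding genes, 54.3% were overlapped by a peak. The share was 80.3% in windows with CCGGAA and 47.3% in those without. It was 89.4% in the 5.34% of windows that held CCGGAAGT, a form found in none of the 11 windows of the licensing genes. AGGAAG, held by 33.5% of all windows, made little difference, with 53.5% overlapped in windows that held it and 54.7% in the others. GGAA alone was in 95.2% of all windows, with 54.35% overlapped in windows that held it and 53.49% in the others. The E2F forms also went with a peak, 74.0% against 53.0%, as did the SP1 box GGGCGG, 73.4% against 29.7%. CCAAT did not, with 52.1% against 55.5%, and it was found in 6 of the 11 windows of the licensing genes and 34.6% of all. These forms overlap in part, since CCGGAAGT contains CCGGAA and both contain GGAA, and windows of 1 gene can overlap each other. GC content was not held equal in these contrasts, and the share overlapped by a peak differed with it. It was 45.9% in windows within 2 percentage points of the ORC1 window, which has a GC content of 55.3%. Near the CDT1 window, at 74.3%, it was 81.4%. Whether any form goes with a peak at equal GC content was not tested. A match is a string of letters and not a measured binding site.

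A protein-coding start on the opposite strand lay within 1 kb of 4 of the 9 genes, ORC1, ORC3, ORC4 and ORC6, against 13.6% of the genes in the promoter table. Of all genes with such a neighbour 89.8% had a peak within 1 kb of a start, and of those without 60.5%. All 4 licensing genes with such a neighbour had one, as did ORC2, CDC6, CDT1 and GMNN of the 5 without. Measured to the outer ends of the gene spans, 7 of the 14 peaks had a summit nearer to a neighbouring gene than to the licensing gene. Measured to the listed starts as well, there were 6, since the summit of the ORC1 start peak is closer to the listed ORC1 start than to PRPF38A. The 7 were both ORC1 peaks, those of ORC3 and ORC4, the upstream ORC6 peak, the upstream CDC6 peak and the downstream CDT1 peak. A peak that covers a pair of starts cannot be assigned to either gene from these data.

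**Figure D4:**
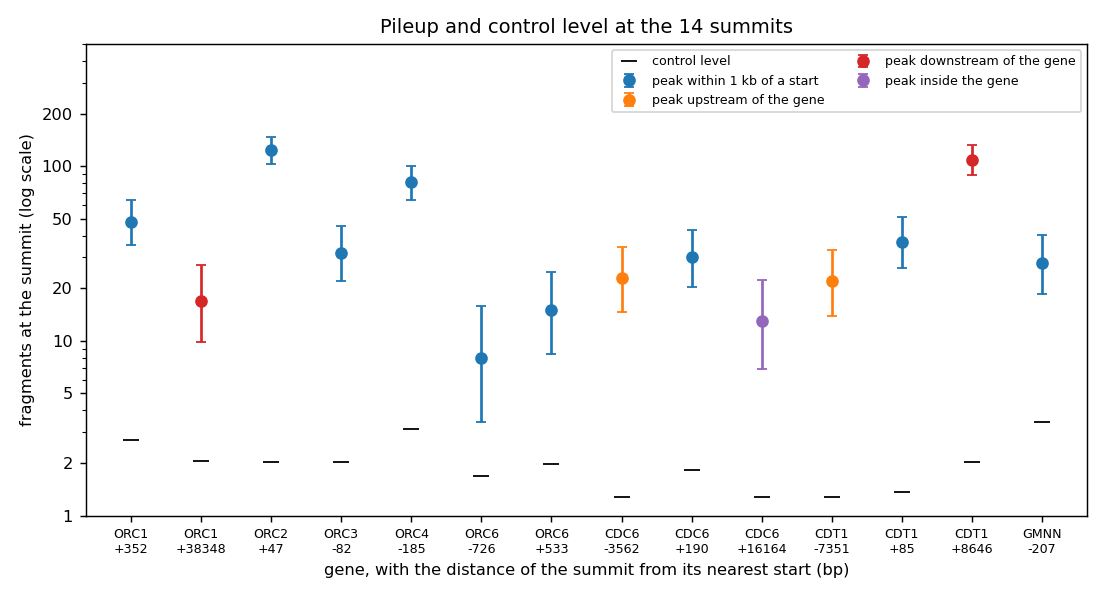
Number of fragments at each of the 14 summits (points, with exact Poisson 95% confidence intervals that cover counting error only) and the control level there (black bars), on a log axis, with the distance of the summit from the nearest start of the gene in bp. The pileups run from 8 at the upstream ORC6 peak to 123 at ORC2, while the control levels stay between 1.28 and 3.41.

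Pileups at the 14 summits ran from 8 to 123 fragments, against a median of 25 among the peaks of the list for which it was computed. The control level was at the lowest value of the list, 1.28, at 3 summits, the upstream CDC6 peak, the peak inside CDC6 and the upstream CDT1 peak. MACS2 takes a genome-wide background as the least value of its control, so the fold at those 3 peaks may be against that floor and not against a local input level.

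The other genes of the licensing pathway were taken as a list of 28, of which the promoter table holds 23. A peak within 1 kb of a start was found for 22 of the 23, and 14 had one with a fold of 10 or more, against the 64.5% and 47.1% of all genes given above. Their median fold at a start was 16.3, with FZR1, which had no peak there, counted as 0. FZR1 encodes an activator of the APC/C ubiquitin ligase. The highest folds were at DDB1 (88.6), a subunit of the ligase that marks CDT1 for degradation, at MCM7 (61.9), a subunit of the loaded helicase, and at DBF4 (60.9), the activating partner of the CDC7 kinase. The lowest were at CCNA2 (3.24), MCM2 (4.84) and CCNE1 (7.72). DDB1, MCM7, DBF4 and MCM2 each have a protein-coding start on the opposite strand within 1 kb. Their peaks may therefore be shared with that neighbour. MCM4, MCM5, OBI1, CCNE2 and CDK2 are not in the promoter table. Measured from either end of the gene span, 26 of the 28 had a peak within 1 kb, against 62.3% of all protein-coding genes.

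By role, the 6 genes of CDT1 turnover all had a start peak, from 9.26 at DTL to 88.6 at DDB1. All of these 6 but CUL4B have a protein-coding start on the opposite strand within 1 kb. The highest CKS1B peak, with a fold of 19.5, came within 1 kb of a start, but its summit was at −1915 bp. The range of the 8 start peaks of the licensing genes, 5.38 to 41.0, lay within that of the other genes of the pathway. Of the geminin relatives, MCIDAS had a fold of 36.9 and GMNC of 9.60, against 6.57 at GMNN. Among the partners of the origin recognition complex, LRWD1, which stabilizes it on chromatin, had a fold of 9.92 and HMGA1 of 35.6. LRWD1 has a protein-coding start on the opposite strand within 1 kb. The HMGA1 peak came within 1 kb of a start, but its summit was at −1073 bp.

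**Figure D5:**
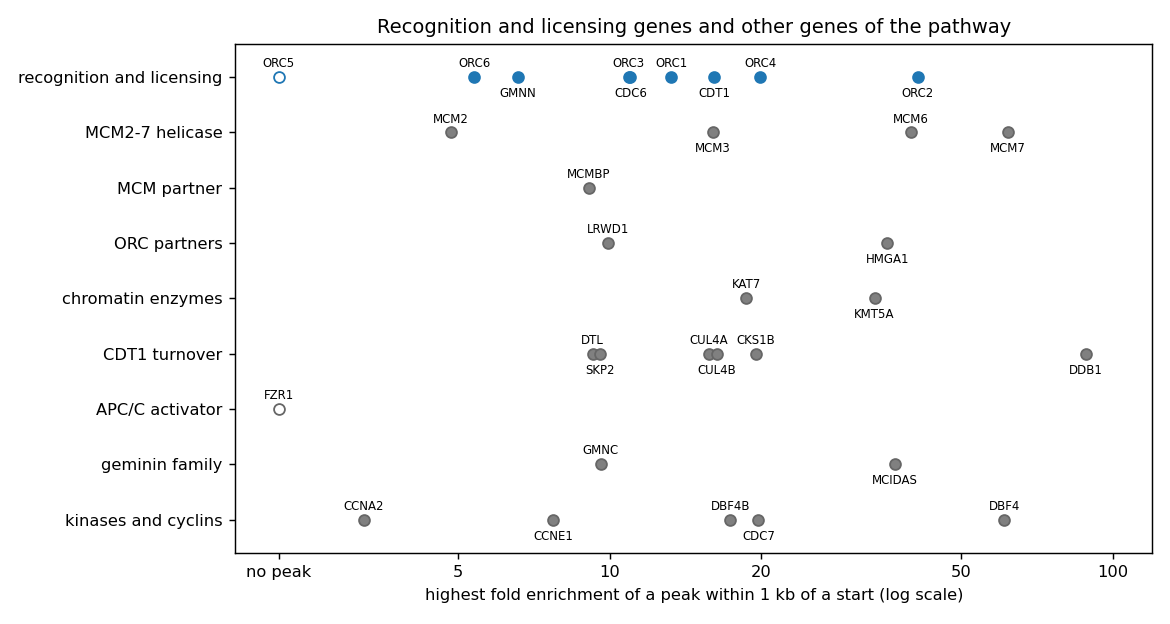
Highest fold enrichment of a peak within 1 kb of a listed start (horizontal log axis) for the 9 licensing genes (blue) and the 23 other pathway genes in the promoter table (grey), by role. Open circles at the left are genes without such a peak, ORC5 and FZR1, and the highest grey point is DDB1 at 88.6.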

How the data were processed

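The authors deposited 1 narrowPeak list of the anti-Flag immunoprecipitate, which holds 54389 peaks. Each deposited peak has a fold enrichment at its summit, a ratio to the control, and the deposited p-value and q-value as −log10. The submitters' processing notes name Bowtie2 2.4.1, SAMtools, MACS2 2.2.7.1, deepTools 3.5.0 and hg38, without roles or parameters. The handling of duplicate reads is not given in the sources used here, and no signal track of the input was used here.

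Positions are 1-based and distances run from the peak interval, unless the summit is named. Gene spans, starts and promoter windows came from RefSeq (GRCh38.p14), and all 9 genes matched. A gene may have several starts, and any of them counted. The pileup and the control level at a summit were solved from the fold, taken as pileup plus 1 over control plus 1, and the Poisson p-value. Of the 52493 peaks with a −log10 p of at most 290, 100% gave a pileup within 0.01 of a whole number. The functions were tested on simulated data.

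The genes, pathway list and motifs were chosen with earlier results of these data known. All peaks of the 9 genes are named, as are the neighbours whose ends were nearer to a summit and, of the pathway list, the 3 highest and 3 lowest. LOC105373835, LHFPL3 and the pathway genes CKS1B, DTL, MCIDAS, GMNC, LRWD1, HMGA1 and FZR1 were named after their values were seen. Alternatives covered stricter fold and q thresholds, other windows, summits and other gene ends. Scripts ran under Python 3.11.15 with scipy 1.17.1, pandas 2.3.3 and numpy 2.4.6, and plots were drawn with matplotlib 3.10.9.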

Additional observations from a re-analysis of the deposited data

How the results depend on the processing

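A peak was found within 10 kb for 8 genes of 9, and within 1 kb of a start also for 8. Over the alternatives the former count ran from 6 to 9 and the latter from 6 to 8. Both were lowest with a fold of at least 10 required, which left out GMNN and ORC6, and ORC5 gained a peak only in the 50 kb window. Taking the outermost 5′ end over all transcripts, or either end of the gene span, in place of the listed start gave 7, since ORC1 was then without a peak. The number of peaks, 14, fell to 9 with a fold of at least 10 and rose to 37 in the 50 kb window. It was 7 when the summit had to be nearest to an outer end of a licensing gene, and 7 when only protein-coding genes were considered as neighbours. The median of the highest fold, 11.0, was 19.9 in the 50 kb window and 11.0 under the fold, q, summit and smaller window settings, and it was not computed for the alternatives on gene ends and starts. Pileups of 8 to 30 fragments limit the weaker peaks, and without a replicate the spread between immunoprecipitates is unknown.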
